A study of Mus musculus with 12 samples.

Results

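The proteasome genes were the rows of the deposited count table whose symbol is Psm followed by a letter from a to g and a number, with or without a final letter. There were 49 such genes among 25239 gene symbols. The RNA came from brain and from liver of male wild type C57BL6/J mice, all aged 24 months. Heat stress mice were held at 40 ± 0.5 °C and 60% ± 5% relative humidity for 3 hours a day on 15 days, and control mice were not. Brain control, brain heat stress, liver control and liver heat stress each had 3 libraries, 12 in all. The labels name no brain region and do not say whether a brain and a liver library with the same number came from one mouse. The comparisons ask how proteasome transcripts differed between heat stress and control in each tissue of aged mice, and between the tissues themselves.

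The proteasome is the protease that degrades proteins tagged with ubiquitin. Its core is a stack of rings, with outer alpha rings (Psma genes) that gate the entrance and inner beta rings (Psmb genes) that hold the active sites. In cells exposed to interferon the active subunits Psmb5, Psmb6 and Psmb7 can be replaced by the immunosubunits Psmb8, Psmb9 and Psmb10, which change the peptides made for class I antigen presentation. The regulatory particle caps the core: its base holds a ring of ATPases (Psmc genes) that unfold substrates and subunits that bind ubiquitin, and its lid removes the ubiquitin chains. Alternative activators (Psme genes), an inhibitor (Psmf1) and dedicated assembly chaperones (Psmg genes, Psmd5, Psmd9 and Psmd10) complete the family. When proteasome activity is short, the transcription factor Nfe2l1 is known to raise the core and regulatory subunit genes together.

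Total counts ran from 11889432 to 14597197 in brain control, from 10552686 to 11147095 in brain heat stress, from 10466198 to 15609040 in liver control and from 13553880 to 13764379 in liver heat stress. Levels are given as CPM, the counts scaled to a common library size. The tissue labels matched their markers: the summed level of 8 hepatocyte genes was 75981 to 119318 CPM in liver libraries and 3.41 to 18.3 CPM in brain libraries, and that of 8 neuronal genes was 6257 to 8836 CPM in brain and 13.5 to 33.2 CPM in liver. In liver, control 1 and heat stress 2 carried skeletal muscle transcripts, with 413 and 2410 CPM over 10 muscle genes against 1.43 to 6.96 CPM in the other 4 libraries. Results in liver are therefore also given without these 2 libraries. These are bulk samples, in which fewer cells of a type and less RNA per cell cannot be told apart.

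The proteasome genes took 0.349% to 0.384% of all counts in brain control and 0.415% to 0.455% in brain heat stress, so these groups did not overlap. In liver the shares overlapped, with 0.431% to 0.514% in control and 0.447% to 0.450% in heat stress. Psmb11, the beta subunit of thymic epithelium, had 0 to 2 counts in every library, under a floor of 3 counts, and was not tested. Psma8, the alpha subunit of the testis, had 3, 4 and 6 counts in brain control, 7, 7 and 9 in brain heat stress, 6, 33 and 23 in liver control and 28, 21 and 17 in liver heat stress. It passed the filter on low counts only where liver libraries were included. The other 47 genes passed the filter in both tissues, so 47 were tested in brain and 48 in liver. Of the 49 genes, 9 had a near-identical copy elsewhere in the genome and 14 overlapped an exon of another gene, so that counting could have moved reads between them. Psme2 and Psme2b were 99.4% identical, Psmb9 shared 212 nt with Tap1, and Psmb8 shared 498 nt with Gm20496.

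The promoter windows of 4 genes are shown. Psmb8 and Psmb9 had the most negative values between the tissues and Psmb8 the most positive heat difference in liver, Psme1 is an interferon-responsive activator, and Psmb5 is the constitutive counterpart of Psmb8. Each window runs from 250 bases before to 50 bases after the RefSeq gene start in GRCm38.p6 and is written 5′ to 3′ on the strand of the gene. Capitals mark a match, on either strand, to one of 3 motifs that were searched: CCAAT, the NF-Y box, in Psmb9, where it is read on the other strand; GAAA followed by any 2 bases and GAAA again, the interferon-stimulated response element, in Psme1, also on the other strand; and TGACNNNGC, the antioxidant response element core bound by Nfe2l1 and Nfe2l2, in Psmb5. The Psmb8 window held no match to these letters and is in lower case throughout.
Psmb8, chr17:34197945-34198244, plus strand: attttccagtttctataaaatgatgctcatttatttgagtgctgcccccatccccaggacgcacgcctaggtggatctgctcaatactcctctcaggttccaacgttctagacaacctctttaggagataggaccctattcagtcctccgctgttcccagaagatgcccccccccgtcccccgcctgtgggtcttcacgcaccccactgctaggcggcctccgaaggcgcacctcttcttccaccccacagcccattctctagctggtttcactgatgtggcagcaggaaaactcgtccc
Psmb9, chr17:34187281-34187580, minus strand: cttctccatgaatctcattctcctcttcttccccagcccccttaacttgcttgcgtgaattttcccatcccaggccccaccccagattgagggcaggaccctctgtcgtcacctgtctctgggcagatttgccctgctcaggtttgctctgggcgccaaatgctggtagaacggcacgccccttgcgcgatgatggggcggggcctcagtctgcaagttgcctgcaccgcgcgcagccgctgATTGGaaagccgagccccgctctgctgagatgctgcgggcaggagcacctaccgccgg
Psme1, chr14:55578244-55578543, plus strand: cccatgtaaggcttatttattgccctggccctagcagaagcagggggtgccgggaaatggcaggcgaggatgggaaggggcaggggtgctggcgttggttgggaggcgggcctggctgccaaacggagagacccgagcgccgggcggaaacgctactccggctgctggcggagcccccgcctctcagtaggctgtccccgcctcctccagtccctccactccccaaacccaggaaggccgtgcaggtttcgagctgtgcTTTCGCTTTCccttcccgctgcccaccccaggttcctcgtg
Psmb5, chr14:54617946-54618245, minus strand: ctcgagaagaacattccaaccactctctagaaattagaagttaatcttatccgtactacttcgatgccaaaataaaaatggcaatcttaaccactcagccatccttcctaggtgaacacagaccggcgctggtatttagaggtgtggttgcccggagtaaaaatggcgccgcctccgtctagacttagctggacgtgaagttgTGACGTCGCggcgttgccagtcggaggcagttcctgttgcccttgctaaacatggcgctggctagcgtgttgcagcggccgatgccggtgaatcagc

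A window was found for 41 of the 49 genes. The interferon-stimulated response element motif was present in windows of 5 of the 41 genes (12.2%) and in 3.44% of 32851 windows of all genes. They were Psme1, Psmb3, Psmd4, Psmd9 and Psmg4. Of the immunosubunits, Psme1 and Psme2, 1 of 5 had it, against 4 of the 36 other genes. The 41 were counted by gene, and some have more than 1 window. The core TGACNNNGC was present in 6 of 41 (14.6%) and in 12.4% of all windows and CCAAT in 14 of 41 (34.1%) and in 37.4%. A match is a description of these windows only, and both strands were searched. None of the 3 motifs was found in the windows of Psmb10, Psme2 or Psme2b. In GENCODE coordinates (GRCm38) Psmb8 lies at chr17:34197721-34201454 on the plus strand and Psmb9 at chr17:34181987-34187764 on the minus strand, and Psme1 lies at chr14:55578123-55581529 on the plus strand.

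In brain, genes of the core particle had higher values in heat stress than in control, and most genes of the regulatory particle lay closer to 0 difference, but no gene passed the adjusted threshold. By edgeR's quasi-likelihood test no proteasome gene passed an adjusted p-value under 0.05, against a background of 0% of 14806 genes in either direction. At an unadjusted p under 0.05, 17 of 47 proteasome genes were higher and 0 lower, against 10.0% higher and 10.0% lower over all genes. The median log2 difference was 0.23 for proteasome genes, 40 of which were positive, and 0.00 for all genes. The 3 heat stress libraries lay above all 3 control libraries for 17 proteasome genes, against 12.9% of all genes. DESeq2, run as the alternative test, gave 318 higher (1.59%) and 300 lower of 20018 genes in brain at an adjusted p under 0.05, and 7 proteasome genes were among the higher ones. These were Psma2, Psma3, Psma4, Psma6, Psma7, Psmb1 and Psmc6, which were singled out after their values were seen, with DESeq2 adjusted p-values from 0.0183 for Psma4 to 0.0447 for Psma6.

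**Figure D1:**
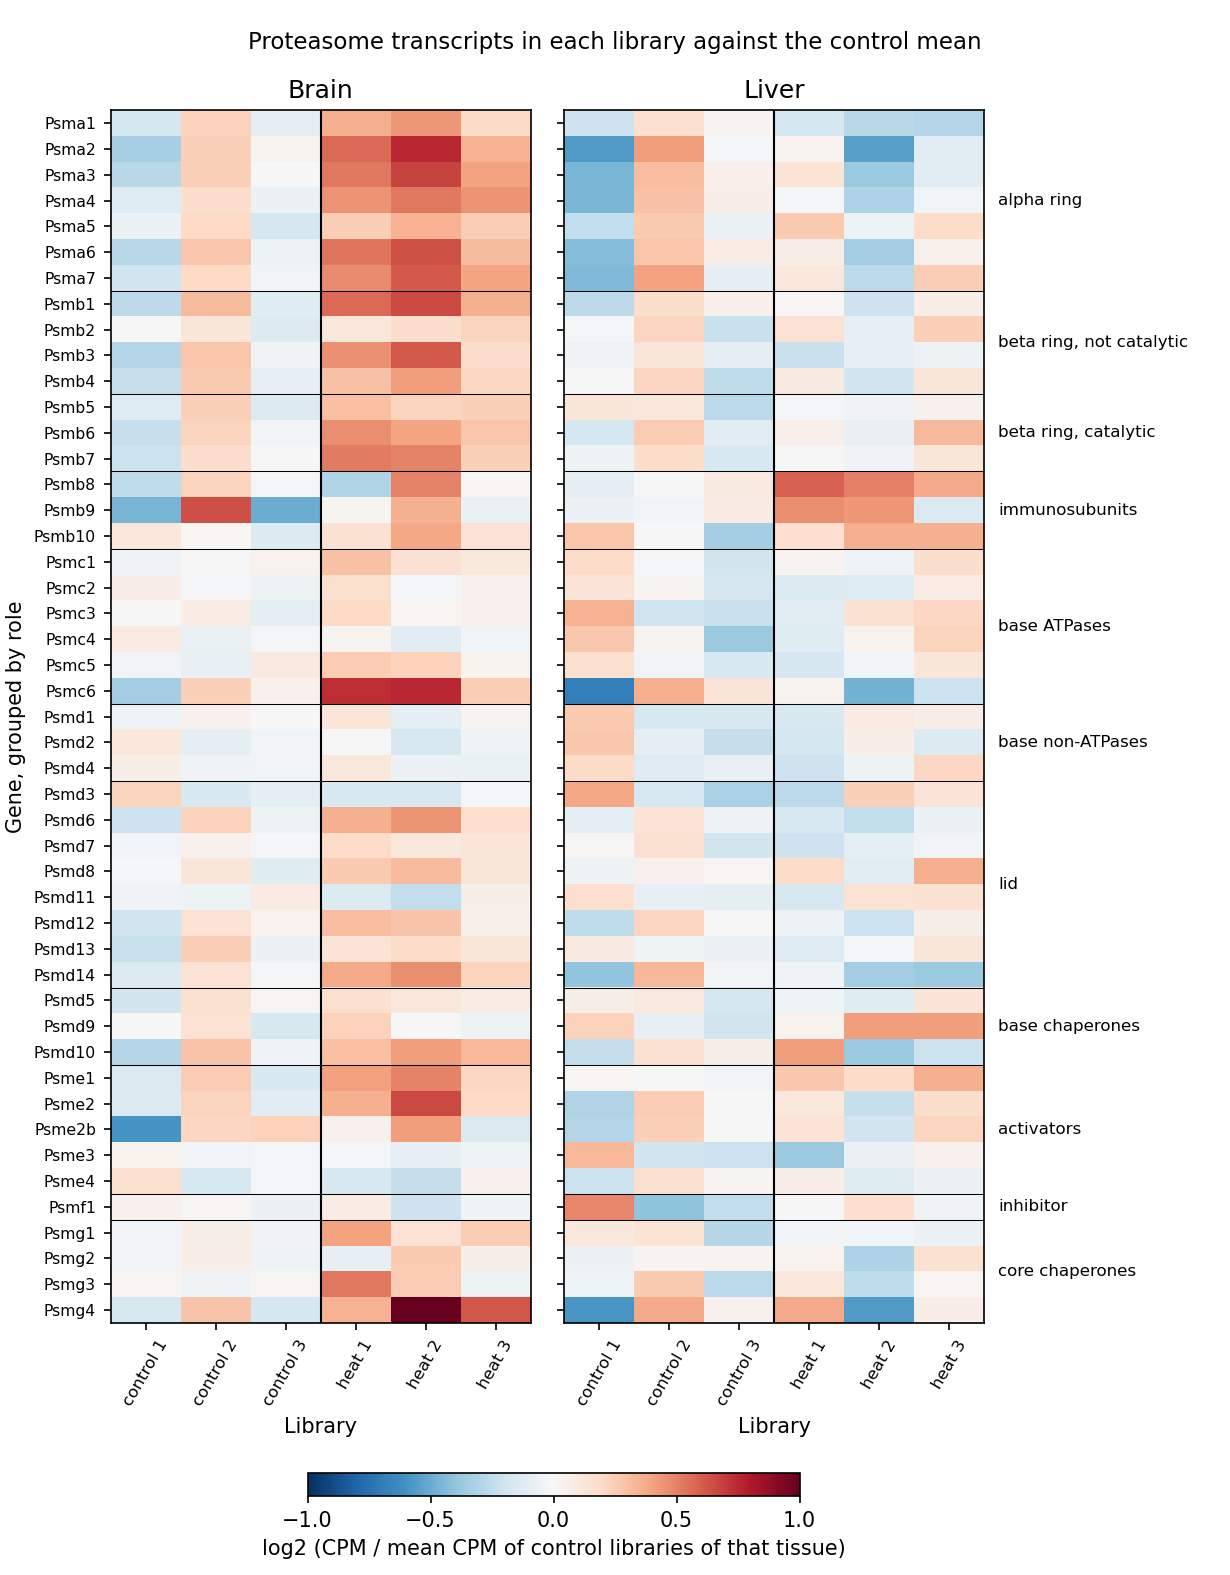
Each cell is the log2 ratio of a library's CPM to the mean CPM of the 3 control libraries of the same tissue, with genes in rows by role and libraries in columns (red higher, blue lower). In brain the alpha ring rows are red in all 3 heat stress libraries, and in liver the alpha ring is bluest in control 1.

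The alpha ring of the core had 7 of 7 members higher at an unadjusted p under 0.05, against 10.0% of all genes. Their log2 differences ran from 0.28 to 0.57, with a median of 0.50. With offsets for each library's trend with transcript length and GC content, 3 of the 7 were higher at that threshold, against 6.22% of all genes. The median was then 0.16 and Psma1 was at -0.07. Summed over the 7 genes, the level was 552, 751 and 624 CPM in brain control and 891, 972 and 816 CPM in brain heat stress. Heat stress 3 was the lowest of its group and still lay above control 2, the highest control. Psma2 had 88.6, 132 and 115 CPM in control and 166, 189 and 142 CPM in heat stress, without overlap. Its log2 difference was 0.57 (SE 0.17) with an edgeR adjusted p of 0.170. Psma4 had 68.4, 84.6 and 72.0 CPM in control and 103, 108 and 103 CPM in heat stress. Its unadjusted p of 0.00208 in edgeR's test was the smallest of any proteasome gene and its log2 difference was 0.48 (SE 0.11). Psma1 was the one alpha subunit whose groups overlapped, at 71.2, 94.4 and 75.4 CPM in control and 103, 109 and 91.8 CPM in heat stress.

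The constitutive beta ring had positive differences as well. All 4 subunits without an active site were positive, with a median of 0.37, and so were the 3 that carry the active sites, with a median of 0.38. Psmb5, the chymotrypsin-like subunit, had 69.5, 89.8 and 69.2 CPM in control and 93.7, 88.8 and 89.7 CPM in heat stress. One control library reached the heat stress range, and the log2 difference was 0.25 (SE 0.13, edgeR adjusted p = 0.290). Psmb6, the caspase-like subunit, had 94.9, 130.4 and 109 CPM in control and 154, 146 and 135 CPM in heat stress, a log2 difference of 0.38 (SE 0.13, edgeR adjusted p = 0.188). Psmb7, the trypsin-like subunit, had 108, 142 and 126 CPM in control and 179.6, 177 and 148 CPM in heat stress. The last 2 genes did not overlap between groups, and Psmb7 differed by 0.42 (SE 0.14, edgeR adjusted p = 0.172). Over the 14 constitutive core genes all 14 differences were positive and the median was 0.43. At an unadjusted p under 0.05, 11 were higher, against 10.0% of all genes. With the offsets for length and GC content 4 of the 14 were higher at that threshold, against 6.22% of all genes. The median was then 0.16.

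The regulatory particle had 13 of 17 positive differences and a median of 0.14. At an unadjusted p under 0.05, 3 of the 17 were higher, against 10.0% of all genes. With the offsets 0 were higher at that threshold, against 6.22% of all genes, and the median was 0.00. Psmc6, an ATPase of the base, stood apart from the other ATPases with 73.8, 111 and 96.8 CPM in control and 157, 159 and 111 CPM in heat stress. Its lowest heat stress library lay just above its highest control library, and the log2 difference was 0.60 (SE 0.18, edgeR adjusted p = 0.170). The other 5 ATPases lay between -0.03 and 0.19. Psmd14, the lid enzyme that cuts ubiquitin chains from substrates, had 78.4, 96.0 and 86.4 CPM in control and 113, 120.2 and 102 CPM in heat stress. Its log2 difference was 0.36 (SE 0.12, edgeR adjusted p = 0.173), and 0.003 with the length and GC offsets. Psmd4, a ubiquitin receptor of the base, had 112, 106 and 106 CPM in control and 117, 104 and 103 CPM in heat stress. Its difference was 0.00 (SE 0.10), and it took either sign across the alternatives. The most negative proteasome genes were Psme4 at -0.11 (SE 0.13), Psmd3 at -0.11 (SE 0.13) and Psmd11 at -0.11 (SE 0.12), all smaller than their errors.

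Among the alternative activators, Psme1 and Psme2, which form the interferon-responsive PA28 cap, were at 0.38 (SE 0.14) and 0.42 (SE 0.16), with edgeR adjusted p-values of 0.206 and 0.204. Psme1 had 29.1, 38.4 and 28.9 CPM in control and 42.7, 45.4 and 37.1 CPM in heat stress. The groups overlapped through control 2. The nuclear activator Psme3 was at -0.05 (SE 0.10) and the inhibitor Psmf1 at -0.05 (SE 0.11). Of the immunosubunits, Psmb8 was at 0.11 (SE 0.25) and Psmb9 at 0.13 (SE 0.37), both smaller than their errors. Psmb10 was at 0.23 (SE 0.12), with 41.6, 39.1 and 35.1 CPM in control and 42.8, 50.6 and 42.6 CPM in heat stress, and it was at 0.14 without heat stress 2. With the length and GC offsets Psme1 was at 0.21, Psme2 at 0.18 and Psmb10 at 0.12. Of 13 interferon regulators and class I presentation genes, 3 were positive in brain, with a median of -0.15. At an unadjusted p under 0.05, 0 of these were higher and 2 lower, against 10.0% of all genes in each direction. With the offsets their median was -0.13, with 0 higher and 3 lower, against 6.22% and 5.26% of all genes. Psmg4, a chaperone of alpha ring assembly, had the most positive difference of any proteasome gene at 0.77 (SE 0.26, edgeR adjusted p = 0.178). Its level was low, with 4.73, 6.46 and 4.70 CPM in control and 6.74, 12.1 and 8.12 CPM in heat stress, and leaving out heat stress 2 brought the difference to 0.49.

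**Figure D2:**
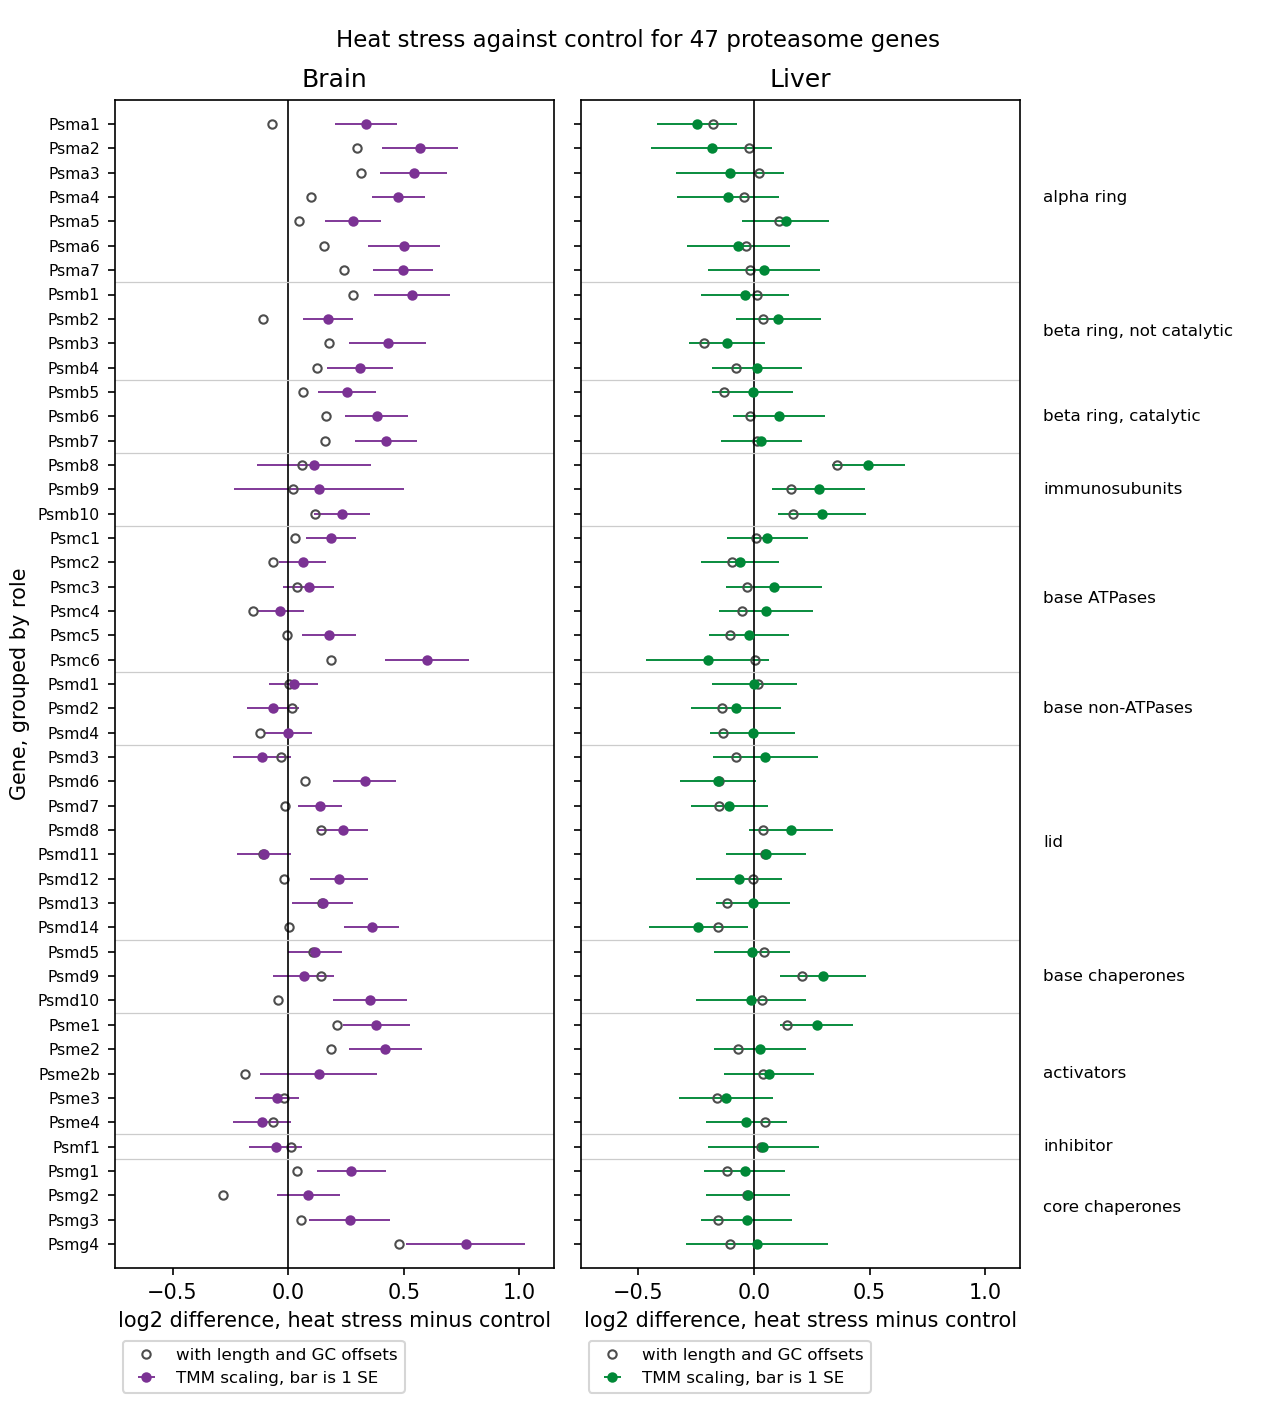
Filled points are the log2 difference of heat stress minus control for each tested gene in brain and liver with a bar of 1 SE on each side, and open circles are the same difference after offsets for transcript length and GC content. In brain the core genes sit between 0.17 and 0.57 and move towards 0 with the offsets, and in liver most genes lie within 1 SE of 0.

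Transcript length moved with these values in brain. Over all 14562 genes with a length, the log2 difference had a correlation of -0.39 with log2 length and -0.26 with GC content, which is a description across genes that share the same 6 libraries. The median difference was 0.15 in the shortest of 3 equal groups of genes by length and -0.14 in the longest. Proteasome transcripts are short, with a median of 1430 nt against 3055 nt for all genes, and 37 of the 47 fell in the shortest group. Those 37 had a median difference of 0.27, and the other 10 a median of -0.01. With offsets for each library's trend with length and GC content, the median of the 47 genes was 0.04, and 5 of them (Psma2, Psma3, Psma7, Psmb1 and Psmg4) were higher at an unadjusted p under 0.05 against 0 lower. In the same fit 6.22% of all genes were higher and 5.26% lower. The offsets took Psma2 from 0.57 to 0.30, Psma3 from 0.54 to 0.31, Psma7 from 0.50 to 0.24, Psmc6 from 0.60 to 0.18 and Psma4 from 0.48 to 0.10. Of the 47 genes, 12 had the other sign with the offsets.

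**Figure D3:**
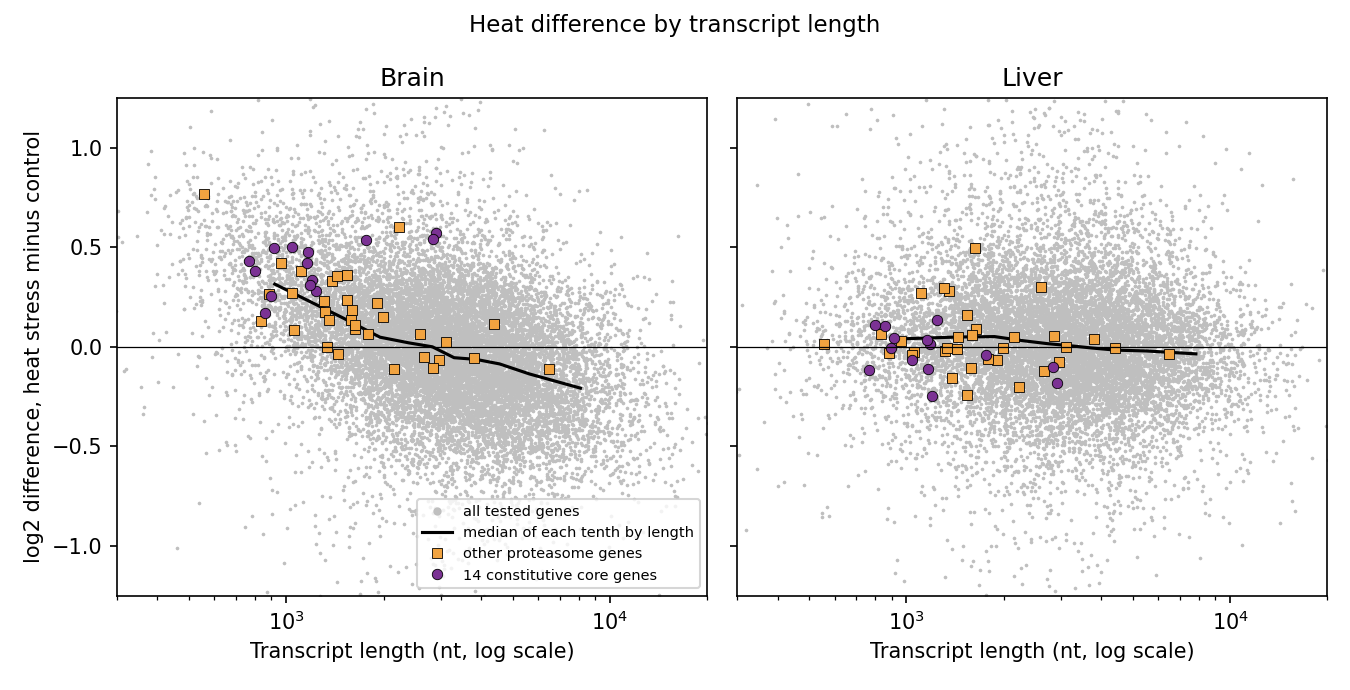
The log2 difference of heat stress minus control (vertical axis) is plotted against transcript length in nt (horizontal, log scale) for all tested genes in grey, the 14 constitutive core genes as purple circles and the other proteasome genes as orange squares, with the running median over 10 length bins as a black line. In brain the line slopes down, with short genes above 0, and most core genes lie at or above it, and in liver it is nearly flat.

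Single libraries also moved the brain count. The number of proteasome genes higher at an unadjusted p under 0.05 was 10 without control 1, 10 without control 3, 11 without heat stress 1, 9 without heat stress 2, 22 without control 2 and 16 without heat stress 3, with 0 lower each time. The share of all genes that was higher moved as well, to 5.12% without control 1, 6.44% without control 3, 6.84% without heat stress 1, 4.85% without heat stress 2, 13.6% without control 2 and 9.66% without heat stress 3. Markers of other cell types moved with the groups as well. All 5 endothelial genes were lower in heat stress at an unadjusted p under 0.05, against 10.0% of all genes. Their summed level was 98.2 to 206 CPM in control and 67.0 to 85.5 CPM in heat stress. The 6 choroid plexus genes were all negative, 3 of them at that threshold, with 1186 to 2568 CPM in control and 258 to 1125 CPM in heat stress. With length and GC offsets 4 endothelial and 5 choroid plexus genes were lower at that threshold, against 5.26% of all genes. Of the 10 T and NK cell genes only Cd4 passed the filter, with 4.59, 5.50 and 3.16 CPM in control and 13.6, 5.37 and 18.7 CPM in heat stress. The list summed to 4.79 to 6.24 CPM in control and 7.89 to 20.0 CPM in heat stress, most of it Cd4, and the defining T cell genes Cd3e, Cd3d and Cd3g were at or near 0 in every library. No marker gene passed the adjusted threshold, and the part of cell composition in the proteasome result was not tested.

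Genes that act with the proteasome but fall outside the naming rule had values of both signs in brain. Of 18 partners, 11 were positive, with a median of 0.12. Sem1, the small lid subunit, was at 0.62 (SE 0.17), Pomp, the core maturation factor, at 0.34 (SE 0.15), Usp14, the deubiquitinase bound to the base, at 0.18 (SE 0.11) and Adrm1, a ubiquitin receptor, at -0.09 (SE 0.12). Of the ubiquitin genes, the polyubiquitin gene Ubb was at 0.15 (SE 0.14) and Rps27a, which encodes ubiquitin fused to a ribosomal protein, at 0.89 (SE 0.21). Rps27a had an unadjusted p of 0.00218 and an edgeR adjusted p of 0.170. The regulator Nfe2l1 was at -0.16 (SE 0.12) and Ddi2, the protease that activates it, at -0.61 (SE 0.20), and 4 of 11 regulators were positive. With the length and GC offsets the partner median was 0.03, Sem1 was at 0.05, Pomp at 0.17, Usp14 at -0.01, Ubb at 0.05, Rps27a at 0.56, Nfe2l1 at 0.06 and Ddi2 at -0.33, so Usp14 and Nfe2l1 took the other sign.

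In liver the values of the proteasome genes as a family lay around 0. Of 48 tested genes, 22 were positive and the median log2 difference was -0.01, against 0.01 for all genes. No proteasome gene passed an adjusted p under 0.05 in edgeR's test, against a background of 0% of 12296 genes in either direction, and DESeq2 gave none among its 28 higher and 33 lower genes. At an unadjusted p under 0.05 there was 1 higher proteasome gene and 0 lower, against 2.97% higher and 2.87% lower over all genes. The 3 heat stress libraries lay above all controls for 2 proteasome genes, against 5.38% of all genes.

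The immunosubunits were the role with the highest median in liver, at 0.29, against 0.17 with the length and GC offsets. Psmb8 was the gene with an unadjusted p under 0.05, where 2.97% of all genes were higher. It had 28.9, 30.7 and 32.8 CPM in control and 46.2, 43.7 and 40.1 CPM in heat stress. The lowest heat stress library lay above the highest control, as for 5.38% of all genes. The log2 difference was 0.49 (SE 0.16, unadjusted p = 0.0105, edgeR adjusted p = 0.649). Psmb9 had 18.7, 19.2 and 20.6 CPM in control and 27.0, 26.3 and 17.6 CPM in heat stress. Heat stress 3 was below every control library, and the difference was 0.28 (SE 0.20, edgeR adjusted p = 0.936). Psmb10 had 36.7, 30.4 and 23.9 CPM in control and 34.2, 38.8 and 38.8 CPM in heat stress, which overlapped, and differed by 0.29 (SE 0.19, edgeR adjusted p = 0.934). With 1 library left out, the difference ran from 0.16 without heat stress 1 to 0.44 without heat stress 3 for Psmb9, and from 0.15 without control 3 to 0.44 without control 1 for Psmb10. With the offsets Psmb8 was at 0.36, Psmb9 at 0.16 and Psmb10 at 0.17. Summed, the 3 immunosubunits were at 84.3, 80.2 and 77.3 CPM in control and 107, 109 and 96.5 CPM in heat stress, without overlap.

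Psme1 was the other gene without overlap, at 98.1, 96.6 and 94.9 CPM in control and 116, 109 and 124 CPM in heat stress. Such separation held for 2 of 48 proteasome genes, against 5.38% of all genes. The log2 difference of Psme1 was 0.27 (SE 0.16, edgeR adjusted p = 0.930), and 0.14 with the offsets. Its partner Psme2 overlapped between groups, with 73.7, 108 and 90.3 CPM in control and 97.4, 77.4 and 102 CPM in heat stress and a difference of 0.03 (SE 0.20). Psmd9, a chaperone of base assembly whose exons overlap Gm26745 over 1849 nt, had the second most positive value at 0.30 (SE 0.19). The catalytic counterparts stayed near 0, with Psmb5 at -0.01 (SE 0.17), Psmb6 at 0.11 (SE 0.20) and Psmb7 at 0.03 (SE 0.18). Within a library, where scaling between libraries cancels, the Psmb8 level per kilobase of transcript was 14.4%, 15.4% and 21.5% of Psmb5 in control and 25.5%, 24.5% and 21.2% in heat stress. The highest control passed the lowest heat stress value. The 3 immunosubunits together, per kilobase, were at 12.6%, 9.91% and 12.1% of their 3 counterparts in liver control and at 14.9%, 16.0% and 11.8% in liver heat stress, which overlapped. Brain control libraries held 12.5%, 9.56% and 9.86% by the same measure, against 8.29%, 10.6% and 9.57% for brain heat stress libraries, also with overlap. The mean log2 difference of this share was 0.30 in liver and -0.16 in brain, and no test was run on it.

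**Figure D4:**
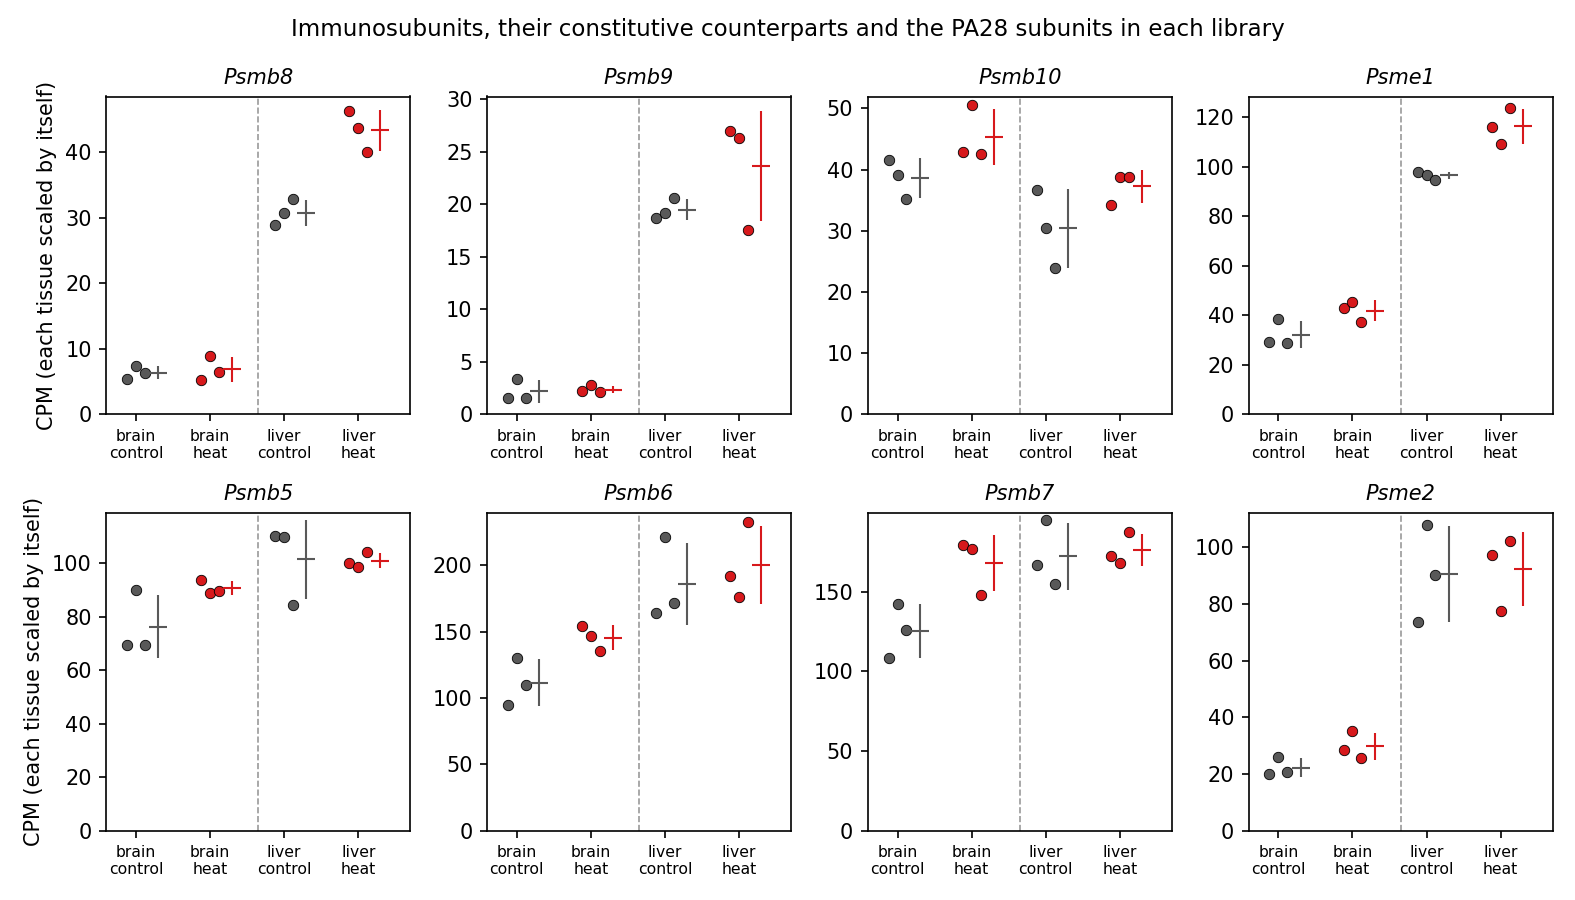
Points are single libraries and the bar beside them is the mean with 1 SD on each side (n = 3 per group) for immunosubunits, their constitutive counterparts and both PA28 subunits, in CPM. Each tissue was scaled by itself, so levels compare within a tissue and not across the dashed line. The liver groups of Psmb8 and Psme1 do not overlap, which held for 2 of 48 proteasome genes and 5.38% of all genes.

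The most negative values in liver belonged to an alpha subunit, a lid enzyme and an ATPase. Psma1 was at -0.25 (SE 0.17), Psmd14 at -0.24 (SE 0.21) and Psmc6 at -0.20 (SE 0.27), and the alpha ring had a median of -0.10. Without control 1 these 3 genes were at -0.35, -0.42 and -0.46, and without control 2 at -0.16, -0.04 and 0.02. With the offsets Psmc6 was at 0.00 and Psmd14 at -0.16. The 7 alpha genes summed to 819, 1355 and 1102 CPM in control and 1134, 872 and 1086 CPM in heat stress. Control 1 and heat stress 2, the libraries with muscle transcripts, were the lowest of their groups. Without them the median of the 48 genes was 0.04 and Psmb8 was at 0.43, and it was again the 1 gene at an unadjusted p under 0.05, with 5.84% of all genes higher. Without heat stress 1 no proteasome gene was at an unadjusted p under 0.05, without heat stress 3 there were 2 higher (1.78% of all genes), and without control 1 there were 3 higher and 2 lower (7.11% and 5.78% of all genes). In the liver columns that carry the suffix 2nd (control 2, heat stress 1 and heat stress 3) Psmb8 differed by 0.49, and in the others by 0.50, where each set of columns has an arm of 1 library. Other genes differed between these sets, with Psmd14 at -0.52 and -0.15 and Psmf1 at 0.38 and 0.00.

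Markers of T and NK cells moved with the liver groups. Of the 10 genes counted 8 passed the filter, and Cd3e and Cd8a among them did so only through the heat stress libraries, where they are higher, so no count over the list is given. The summed level of all 10 was 3.84, 7.94 and 9.17 CPM in control and 23.7, 15.0 and 14.8 CPM in heat stress, and none was at 0 in every library. Ccl5, a chemokine of these cells, differed by 2.28 (SE 0.40, edgeR adjusted p = 0.141). Leukocyte and macrophage markers had summed levels of 164 to 237 CPM in control and 197 to 296 CPM in heat stress. Of the 12 genes 11 passed the filter, Cx3cr1 among them only through the heat stress libraries. The other 10 were all positive, with a median log2 difference of 0.43 (0.40 with length and GC offsets), and 2 had an unadjusted p under 0.05, where 2.97% of all genes were higher. They were Coro1a, an actin-binding protein of leukocytes, at 0.78 (SE 0.20, edgeR adjusted p = 0.465) and Cd74, the class II invariant chain, at 0.51 (SE 0.21, edgeR adjusted p = 0.846), and neither overlapped between groups. Of 13 interferon regulators and class I presentation genes, 10 were positive, with a median of 0.13. The 1 gene of this list at an unadjusted p under 0.05 was lower in heat stress, Pdia3, a chaperone of class I loading, at -0.73 (SE 0.20, unadjusted p = 0.00459, edgeR adjusted p = 0.474). The chaperone Calr was at -0.47 (SE 0.25) and the peptide transporter Tap1 at 0.32 (SE 0.23). The part of these cells in the immunosubunit values was not tested. GC content moved with the liver values too, with a correlation of 0.62 over the 48 proteasome genes and 0.23 over all genes.

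Other pathway genes in liver gave mixed values. Of 18 partners 4 were positive, with a median of -0.14, and Ubqln2 was the most negative at -0.41. Pomp was at -0.01 (SE 0.17), Sem1 at -0.13 (SE 0.27), Adrm1 at 0.17 (SE 0.26) and Usp14 at -0.23 (SE 0.17). Ubb was at 0.22 (SE 0.22). With the length and GC offsets the partner median was -0.06, with Pomp at -0.04, Adrm1 at 0.06, Usp14 at -0.10 and Ubb at 0.10, and Sem1 took the other sign at 0.07. Of 11 regulators 4 were positive, with a median of -0.04. Nfe2l1 was at -0.07 (SE 0.28) and -0.17 with the offsets. The 1 regulator at an unadjusted p under 0.05 was Mafk, its small Maf partner, at 0.71 (SE 0.20) with an unadjusted p of 0.00485 and an edgeR adjusted p of 0.486, and at 0.60 with the offsets.

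The heat difference of liver minus that of brain was tested directly in 1 fit over the 12 libraries. No proteasome gene passed an adjusted p under 0.05 in edgeR's test, in which 1 of 15824 genes did (0.00632% lower, 0% higher), and DESeq2 called 0 proteasome genes among its 29 higher and 19 lower genes. At an unadjusted p under 0.05, 9 of 48 proteasome genes had a lower heat difference in liver than in brain and 0 a higher one, against 5.91% and 3.73% of all genes. They were Psma1, Psma2, Psma3, Psma4, Psmb1, Psmb3, Psmc6, Psmd6 and Psmd14, named after their values were seen. Among genes that passed the filter in both tissues Psmc6 was the most negative at -0.79 (SE 0.33), and Psmb8 at 0.37 (SE 0.27) and Psmd9 at 0.21 (SE 0.26) were the most positive. With 1 library left out Psmb8 ran from 0.25 to 0.65 and Psmd9 from 0.10 to 0.41. Psma8, which entered this fit through its liver counts only, was at -1.06 (SE 0.81) and ran from -1.55 to -0.61 with 1 library left out. With length and GC offsets the count of lower proteasome genes was 1, against 5.02% of all genes. It was 0 without brain control 1, brain control 3, brain heat stress 1 or brain heat stress 2, fits in which 2.71% to 3.09% of all genes were lower. It was 13 without liver control 1 (7.64% of all genes) and 10 without both libraries with muscle transcripts (6.34%). It was 1 without liver control 2 (5.14%), 3 without liver heat stress 2 (4.89%) and 6 without liver heat stress 3 (3.77%). Side by side, 22 of the 47 genes tested in both tissues were positive in brain and negative in liver, 18 were positive in both, 4 were negative in brain and positive in liver and 3 were negative in both.

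Brain and liver of control mice differed far more than the heat groups did. With TMM scaling, which equalises most genes between libraries, 44 of 47 proteasome genes were lower in brain and 0 higher at an adjusted p under 0.05 in edgeR's test, against 35.5% lower and 42.8% higher of 15213 genes. The median log2 difference of brain minus liver was -1.54 for proteasome genes and 0.20 for all genes. Scaled by library totals alone, 25 were lower and 4 higher (Psmc5, Psme3, Psmd7 and Psmf1) against 19.3% and 64.0% of all genes, the median was -0.44, and that of all genes was 1.30. Relative to the median of all genes the proteasome median was -1.74 under either scaling, since this change of scaling moves all genes nearly alike. With TMM scaling 46 of 47 genes lay below the median of all genes, 39 of them by more than 1, against 31.3% of all genes. With length and GC offsets 32 were lower and 4 higher (Psmc5, Psmd10, Psmd14 and Psmg2) against 45.3% and 37.3% of all genes, and the median was -0.40 relative to all genes.

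Interferon-responsive members other than Psmb10 had the most negative values. Psmb9 was at 0.794, 1.71 and 0.783 CPM per kilobase of transcript in brain control and at 22.2, 20.0 and 21.8 in liver control. Its log2 difference was -4.29 (SE 0.30, edgeR adjusted p = 1.04e-06). Psmb8 was at 2.24, 3.09 and 2.67 CPM per kilobase in brain and at 28.4, 26.6 and 28.9 in liver, a log2 difference of -3.39 (SE 0.20, edgeR adjusted p = 3.14e-07). Psme2 was at 14.2, 18.3 and 14.8 CPM per kilobase in brain and at 123, 158 and 134 in liver, with a log2 difference of -3.13 (SE 0.20, edgeR adjusted p = 5.90e-07). Psme2b followed at -2.87 (SE 0.26) and Psme1 at -2.71 (SE 0.20). Psmb10, the remaining immunosubunit, was less negative than the family median of -1.54, at -0.78 (SE 0.22, edgeR adjusted p = 0.00823). Under library totals it was at 0.33 and not called. With length and GC offsets Psmb9 was at -3.65, Psmb8 at -3.08, Psme2 at -1.89, Psme1 at -1.80 and Psme2b at -1.41, all called. Psmb10 was then at -0.28 and not called, and the activator Psme4, at -3.31, was more negative than Psmb8.

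The constitutive core was called lower in brain for 14 of 14 genes, against 35.5% of all genes, with a median log2 difference of -1.77. Psmb5 differed by -1.54 (SE 0.21), Psmb6 by -1.85 (SE 0.21) and Psmb7 by -1.57 (SE 0.20). The ATPases had a median of -0.92 and the lid one of -1.32, with Psmd4 at -1.28 (SE 0.20) and Psmd14 at -1.06 (SE 0.20). Psmd7, a lid subunit that pairs with Psmd14, was the least negative gene called, at -0.70 (SE 0.18). With the length and GC offsets the core median was -0.49, with 9 of 14 called lower against 45.3% of all genes. The ATPases then had a median of -0.29 and the lid one of -0.64, where the median of all genes was -0.23. Relative to all genes these medians were -0.25 for the core, -0.06 for the ATPases and -0.41 for the lid. With the offsets Psmb7 was at -0.29 and not called, Psmd7 at 0.19 and not called, and Psmd14 at 0.42 and called higher. The genes not called were Psme3 at 0.27 (SE 0.22), Psmc5 at 0.14 (SE 0.19) and Psmf1 at -0.56 (SE 0.27). Without liver control 1 Psme3 was at 0.55 (edgeR adjusted p = 0.00448) and Psmf1 at -0.15, and without liver control 2 Psme3 was at 0.14 and Psmf1 at -0.76 (edgeR adjusted p = 0.0262). With 1 library left out Psmc5 ran from 0.04 to 0.29. With the offsets Psmc5 was at 1.20 and Psmf1 at -1.42, both called. Psmc5 was at 100.3, 96.5 and 110.4 CPM per kilobase in brain and 112, 86.5 and 80.5 in liver, with overlap, and so was Psme3 at 27.7, 26.3 and 27.0 in brain and 30.2, 18.5 and 18.4 in liver. Psme4, the other nuclear activator, was lower in brain, at -2.09 (SE 0.19, edgeR adjusted p = 4.67e-06).

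The tissue comparison was repeated in heat stress mice, with no library in common. Psma8 is left out of these counts, since it passed the filter there only through its liver counts. Of the other 47 proteasome genes 45 were lower in brain and 0 higher, against 37.9% and 43.1% of 15296 genes, and the median was -1.31 against 0.13 for all genes. Psmb9 was at -4.49 (SE 0.24), Psmb8 at -3.84 (SE 0.21) and Psme2 at -2.81 (SE 0.18), and Psmc5 and Psme3 were again the genes not called. Across the 47 genes tested in both, the differences of control mice and of heat stress mice had a Pearson r of 0.95, as a description over genes that share libraries within each comparison. With length and GC offsets 30 of these 47 were lower and 4 higher, against 46.1% and 37.9% of all genes, and the median was -0.58, or -0.36 relative to all genes. The constitutive core had a median of -1.35 in heat stress mice, and with the offsets a median of -0.29 (-0.07 relative to all genes) with 7 of 14 called lower. Psmf1 was at -0.69 (SE 0.15) and was called there.

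**Figure D5:**
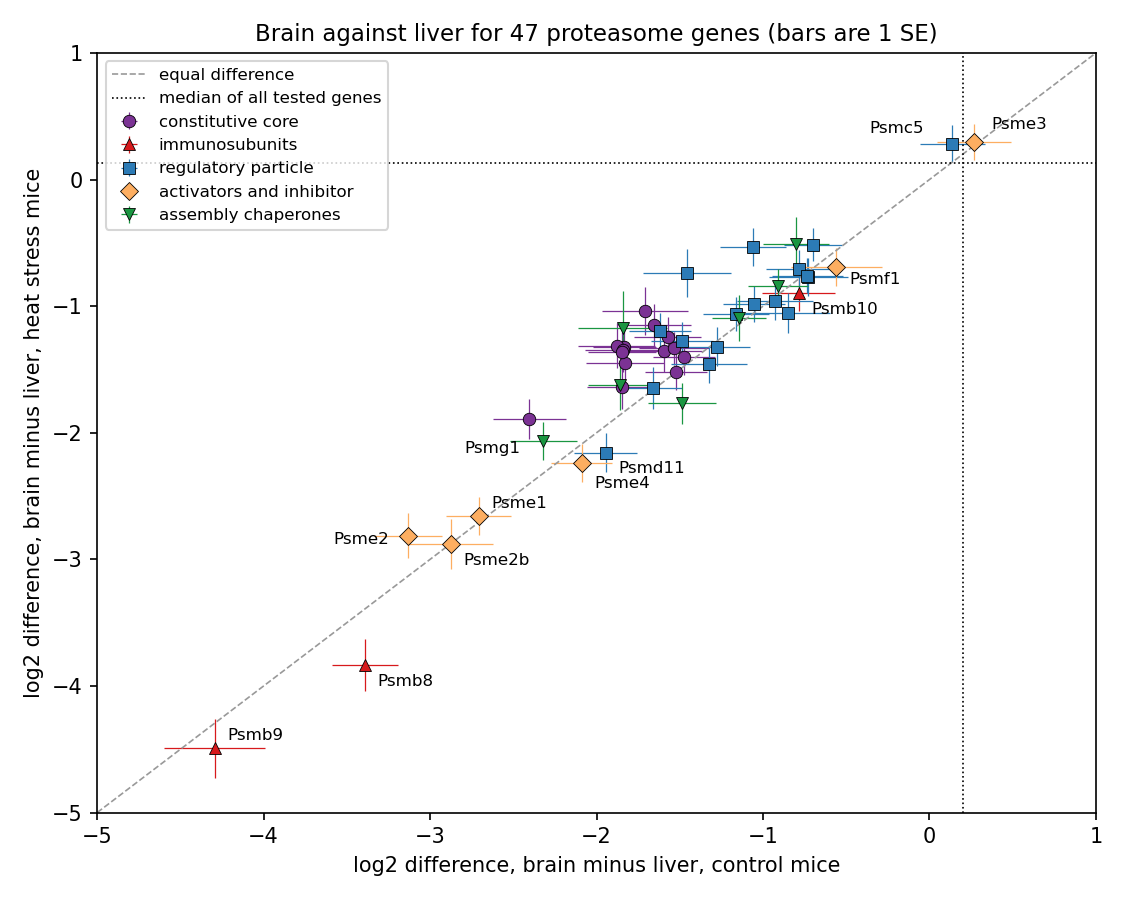
Each point is a proteasome gene, with its log2 difference of brain minus liver in control mice (horizontal) and in heat stress mice (vertical), bars of 1 SE, colours by role, and dotted lines at the median of all tested genes. Psmb9 and Psmb8 sit at the lower left, the PA28 genes next to them, and Psme3 and Psmc5 sit near the dotted lines.

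Levels per kilobase differed among core subunits that enter the complex in equal numbers. In brain control the 14 core genes ran from 25.1 CPM per kilobase for Psma3 to 95.4 for Psmb6, and in liver control from 85.6 for Psma2 to 343 for Psmb6. Psma2 and Psma3 have the longest transcript models of the core, so their level per kilobase depends on the model chosen. In the regulatory particle Psmd11 was lowest in both tissues, at 9.56 in brain and 36.8 in liver, and the highest were Psmc5 at 102 in brain and Psmd4 at 134 in liver. The order of levels over the 47 genes was alike in both tissues, with a Spearman rho of 0.84 as a description over genes. The immunosubunit make-up differed by subunit: per kilobase and within a library, Psmb8 was 3.05% to 5.57% of Psmb5 in brain libraries and 14.4% to 25.5% in liver libraries. Psmb9 was 0.830% to 1.54% of Psmb6 in brain and 4.46% to 8.83% in liver, and Psmb10 was 21.1% to 34.0% of Psmb7 in brain and 13.7% to 20.4% in liver.

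The pathway lists outside the naming rule differed in how many of their genes were lower in brain control, beside the 35.5% lower and 42.8% higher over all genes. All 13 interferon regulators and class I genes were lower in brain at an adjusted p under 0.05, with a median log2 difference of -2.99, from H2-K1 at -5.88 (SE 0.38) to Irf8 at -0.70 (SE 0.23), with Tap1 at -3.00 (SE 0.24). Of 18 partners 8 were lower and 4 higher, with Sem1 at -2.17 (SE 0.26), Pomp at -1.47 (SE 0.19), Adrm1 at -1.52 (SE 0.29) and Usp14 at 0.43 (SE 0.16). Of 18 ubiquitin genes 10 were lower and 3 higher, with Ubb at 0.66 (SE 0.24). Of 11 regulators 7 were lower, from Maff at -2.78, and 1 was higher, Nfe2l1 at 1.20 (SE 0.28, edgeR adjusted p = 0.00278). These counts rest on TMM scaling, under which the median of all genes was 0.20. With the length and GC offsets 12 partners were lower and 4 higher, 12 ubiquitin genes were lower and 1 higher, and 9 regulators were lower and 0 higher, against 45.3% lower and 37.3% higher of all genes. Nfe2l1 was then at -0.33 and Usp14 at -0.24, both of the other sign.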

How the data were processed

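RNA from brain and liver was sequenced as poly(A)-selected, paired-end libraries. Per the submitters' processing notes, the authors used FastQC 0.11.9, Trimmomatic 0.39, HISAT2 2.2.1 and featureCounts of Subread 2.0.1 with mm10, and deposited raw counts per gene symbol. The study's methods also describe a second aligner and counter, and the annotation and the strand setting of counting are not given in the sources used here. The deposited tables of the authors' own DESeq2 1.22.2 comparisons (log2 fold changes and p-values) were not used.

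Counts were analysed in R 4.3.3 with edgeR 4.0.16: TMM scaling, filterByExpr (minimum count 10, minimum total 15), robust quasi-likelihood fits over the groups compared, and Benjamini-Hochberg adjustment over all tested genes, with calls at an adjusted p under 0.05. Each SE is that of the log2 difference. DESeq2 1.42.0 was the alternative test. Other alternatives were RLE or library-total scaling, other filters (none, or over 1 CPM in 3 libraries), all 12 libraries in one fit, a replicate block, offsets for transcript length and GC content (GENCODE M21 transcripts, splines per library) and leaving out each library. The 2 settings without the liver libraries that carry muscle transcripts and with the column suffix as a covariate were chosen after seeing the data. Near-identical copies were found with BLAST 2.17.0+ (at least 95% identity over at least 50% of the transcript). Promoter windows are those of RefSeq (GRCm38.p6). The proteasome genes, the gene lists and the tests were chosen with earlier results of these data known. Genes named with values were the 3 most positive and 3 most negative per heat comparison, the 4 of each kind between tissues, 2 of each kind for the difference between tissues, and the catalytic subunits, immunosubunits, activators, the inhibitor and key regulatory subunits. Other proteasome genes given with values were chosen after their values were seen. These were Psma1, Psma3, Psma4, Psma7 and other assembly chaperones in brain, and the assembly chaperones between tissues. Some pathway genes outside the family are not reported here by name.

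On data simulated from the brain means, the fit recovered 197 of 200 genes changed 4-fold, more than any proteasome gene differed with heat stress in brain, with 17 false calls. Total counts were 10466198 to 15609040 per library. No 2 replicates agreed within sampling noise, so all were counted. The study's methods give 3 animals a group, the number of libraries per group and tissue, and the labels tie no library to an animal. An exact permutation test of 3 against 3 libraries cannot go below p = 0.1 and was not used.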

Additional observations from a re-analysis of the deposited data

How the results depend on the processing

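No proteasome gene passed the adjusted threshold in brain, in liver or in the difference between them under any alternative of edgeR. DESeq2 called 7 higher in brain (1.59% of all genes), with 17 at an unadjusted p under 0.05 (6.77% of all genes). In brain, length and GC offsets brought the number higher at an unadjusted p under 0.05 from 17 (10.0% of all genes) to 5 (6.22%), and to 4 (5.96%) with the replicate block as well. The brain median was 0.045 with the offsets alone and 0.045 with the block added, and 0.043 and 0.043 relative to all genes. Leaving out 1 library gave 9 to 22 higher genes, a median of 0.19 to 0.30, and 0.19 to 0.30 relative to all genes.

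In liver, the replicate block gave 0 higher genes with and without the offsets, and leaving out 1 library gave 0 to 3 higher, 0 to 2 lower, a median of -0.06 to 0.06 and -0.05 to 0.04 relative to all genes. For the difference between tissues, the number lower at an unadjusted p under 0.05 was 4 without a filter (3.60% of all genes), 1 with the block (3.24%), 1 with the offsets (5.02%) and 0 with both (3.36%). Leaving out 1 library gave 0 to 13 lower, 0 to 1 higher, a median of -0.28 to -0.13 and -0.24 to -0.10 relative to all genes.

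Between tissues, library totals gave 4 higher and 25 lower genes and a median of -0.44. The offsets gave 4 higher and a median of -0.63 (-0.40 relative to all genes), and with the block 4 higher and -0.61 (-0.39). Without a filter the relative median was -1.93, and in heat stress mice, Psma8 included, the median was -1.32 (-1.45 relative). Leaving out 1 library gave 44 to 45 lower, 0 to 1 higher, a median of -1.65 to -1.43 and -1.87 to -1.70 relative to all genes. The immunosubunit share differed by -0.25 to -0.04 in brain and 0.19 to 0.42 in liver when 1 library was left out.

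Over all tested proteasome genes, the offsets changed the sign of 12 of 47 in brain, 15 of 48 in liver, 8 of 48 in the difference between tissues and 5 of 47 in the tissue comparison. Sign changes under each setting are listed here for the genes picked by the naming rule in that comparison. In brain, the sign changed for Psmd4 at -0.0025 with DESeq2, for Psmd4 at -0.014 without a filter, for Psmd4 at -3.322e-05 with the stricter filter. It changed for Psmd4 at -0.0079 with all 12 libraries in one fit, for Psmd4 at -0.0011 with the replicate block, for Psmf1 at 0.011 and Psmd4 at -0.12 with length and GC offsets. It changed for Psmf1 at 0.0091 and Psmd4 at -0.12 with the replicate block and the offsets. In liver, the sign changed for Psmb7 at -0.0027 and Psme2 at -0.016 with library totals, for Psmf1 at -0.0018 with all 12 libraries in one fit, for Psmb5 at 0.0038 and Psma8 at 0.12 with the replicate block. It changed for Psmc6 at 0.0023, Psmb6 at -0.016, Psma8 at 0.081, Psme2 at -0.068 and Psme4 at 0.048 with length and GC offsets, for Psmc6 at 0.0066, Psmb6 at -0.016, Psma8 at 0.23, Psme2 at -0.064 and Psme4 at 0.052 with the replicate block and the offsets, for Psmb5 at 0.063, Psme2 at -0.0025, Psme3 at 0.038 and Psmd4 at 0.10 without the libraries with muscle transcripts. It changed for Psmb7 at -0.026, Psme2 at -0.097 and Psmd4 at 0.017 with the column suffix as a covariate. In the tissue comparison, the sign changed for Psmd7 at 0.40, Psmf1 at 0.57, Psmb10 at 0.33 and Psmd14 at 0.023 with library totals, for Psmd7 at 0.19 and Psmd14 at 0.42 with length and GC offsets, for Psmd7 at 0.19 and Psmd14 at 0.42 with the replicate block and the offsets. With 1 library left out, brain differences ran from -0.13 to 0.27 for Psmb8, from -0.060 to 0.59 for Psmb9, from -0.19 to 0.014 for Psmd3, from -0.066 to 0.030 for Psmd4 and from -0.13 to 0.015 for Psmf1. With 1 library left out, liver differences ran from -0.58 to 0.41 for Psma8, from -0.12 to 0.052 for Psmb5, from -0.026 to 0.25 for Psmb6, from -0.041 to 0.13 for Psmb7, from -0.46 to 0.021 for Psmc6, from -0.14 to 0.085 for Psmd4, from -0.11 to 0.17 for Psme2, from -0.22 to 0.071 for Psme3, from -0.14 to 0.054 for Psme4 and from -0.13 to 0.36 for Psmf1. The cause of these changes was not tested, and the fits with 1 library left out also hold fewer libraries.

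Correlations of the deviations of same-numbered libraries ran from -0.28 to 0.17 for brain, from -0.52 to 0.088 for liver, from 0.078 to 0.19 for brain and liver of control mice and from -0.10 to 0.028 for those of heat stress mice. In no comparison was every pair over 0.1, so the replicate block rests on a shared number only. In control mice each library correlated best with its own number in the other tissue (other pairs from -0.19 to 0.050), a hint from the data and not from the design.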

Other observations

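In brain control mice the core chaperones were lower than in liver for Psmg1 at -2.32 (SE 0.20), Psmg3 at -1.86 (SE 0.20), Psmg4 at -1.84 (SE 0.27) and Psmg2 at -1.14 (SE 0.16) on the log2 scale. The base chaperones were lower for Psmd9 at -1.49 (SE 0.21), Psmd5 at -0.91 (SE 0.18) and Psmd10 at -0.80 (SE 0.20). All 7 were called lower by edgeR at an adjusted p under 0.05, against 35.5% of all genes. With length and GC offsets Psmd10 was at 0.80 and Psmg2 at 0.43, and both were called higher. In that fit 2 of the 3 base chaperones and 3 of the 4 core chaperones were called lower. Of all genes 45.3% were then lower and 37.3% higher. In heat stress against control, the chaperones other than Psmg4 lay between 0.07 for Psmd9 and 0.35 for Psmd10 in brain. With the offsets Psmd10 was at -0.04 and Psmg2 at -0.28, both from positive values.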
